A study of Mus musculus with 14 samples.

Results

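The 10 genes described here encode the NF-κB subunits and a set of their inhibitors and regulators. They are 10 of the 32285 genes counted, taken by symbol and chosen by their level (CPM, a gene's UMIs relative to all UMIs of a cell class) in clone cells against bystander T and myeloid cells of the same nodule, which were known beforehand: the 5 subunits Nfkb1, Nfkb2, Rel, Rela and Relb, and 5 regulators, Nfkbia, Nfkbie, Nfkbiz, Tnfaip3 and Bcl3. They were measured by droplet-based single-cell RNA sequencing of white nodules from 7 mice of the genotype Eif3e fl/fl Cγ1Cre Rosa26-YFP LSL (cKO), with matched libraries of antigen receptor (V(D)J) transcripts. Eif3e encodes a subunit of a translation initiation factor, and the Cγ1Cre allele is active in B cells that have been stimulated, where the floxed gene is lost. By the paper's account, however, B and CD4+ T cells of the tumors lacked YFP and had normal eIF3e protein levels. It proposes that they arose from Eif3e-sufficient lymphocytes. Loss of Eif3e in the clones was not examined here. B cell receptors (BCR) were profiled in nodules of the liver of mouse 27 at 12 mo of age, the lung of mouse 29 at 12 mo, the spleen of mouse 31 at 13 mo, the thymus of mouse 33 at 16 mo, and the lung and thymus of mouse 34 at 9 mo. T cell receptors (TCR) were profiled in nodules of the liver of mouse 30 at 14 mo and the spleen of mouse 32 at 12 mo. Values for B clones follow the order of mice 27, 29, 31, 33 and 34, and those for T clones the order of mice 30 and 32, unless mice are named. The nodule of mouse 27 is described by the study as a secondary tumor grown in a Rag2-/- recipient, which makes no T or B cells of its own, and the others as primary. Each mouse gave 1 RNA library, whose material is called its nodule here although the labels speak of nodules, so the effects of site and of mouse cannot be told apart. Lung and thymus were pooled in mouse 34, and its cells cannot be assigned to either site. No nodule-free or Cre-negative tissue was analysed here.

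NF-κB is a family of transcription factors that act as pairs of subunits. Rel (c-Rel), Rela (p65) and Relb carry a transactivation domain. Nfkb1 and Nfkb2 encode the precursors p105 and p100, whose processed forms p50 and p52 bind DNA. In the canonical route, IκB proteins such as those encoded by Nfkbia and Nfkbie hold dimers of Rel or Rela in the cytoplasm until the IκB kinase marks them for degradation. In the alternative route, the kinase encoded by Map3k14 drives processing of p100, which frees dimers of p52 and Relb. Nfkbiz and Bcl3 encode atypical, nuclear IκB proteins, and Tnfaip3 encodes A20, a ubiquitin-editing enzyme that dampens the signal. Several of these regulators are themselves transcribed upon NF-κB activation, and B cells use both routes for survival downstream of the BCR, CD40 and the BAFF receptor. The counts are of transcripts and do not show processing, localization or activity of the proteins.

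Of 77442 deposited cells, 75503 passed the filter, with a median of 1364 to 5319 unique molecular identifiers (UMIs) per cell. The clone of a nodule comprised the cells with its commonest heavy or beta chain, its commonest light or alpha chain, or both. These cells were taken from any expression cluster. The B clones held 1782, 323, 3974, 1084 and 1416 cells, and the T clones 2107 and 4868 cells. Bystander T-like cells (392 to 5107 per nodule) and myeloid-like cells (145 to 3156) of the same nodule were the comparison. In BCR nodules the bystander T-like cells had no receptor call. In TCR nodules they had a called receptor other than that of the clone. T-like cells carried a summed level of 1037 to 3209 CPM for 8 T cell markers, against 7.70 to 54.1 CPM in the B clones. The 8 B cell markers summed to 1664 to 3509 CPM in the B clones and to 81.7 to 316.7 CPM in the T-like cells of the same mice. In myeloid-like cells of these mice they summed to 155.2 to 638.2 CPM. The part of free RNA and mixed droplets in these levels was not tested. Each pair of RNA libraries shared between 96 and 286 cell barcodes. B clone cells were deeper (median 9367 to 13763 UMIs) than the T-like cells beside them (1188 to 3294), so shares of cells with a UMI are given after thinning each cell to 1000 UMIs.

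The largest values of the family lay in B clones that part by heavy chain, so the chains are shown first. In mice 27, 31, 33 and 34 the cells of the clone carry more than 1 heavy chain CDR3. This is the stretch that forms the centre of the antigen-binding site. Cells without the commonest heavy chain entered the clone by its light chain, so their shared light chain follows from the definition. In mouse 27, cells with heavy chains 1 and 2 held 12.3 and 11.6 CPM of Nfkb2. Rela was at 18.3 and 17.8 CPM in them, so neither gene parted there. The chains of mice 33 and 34 are shown. The nucleotide CDR3 sequences are given as deposited for the nodules, with bases that differ from heavy chain 1 of the same mouse in capitals, and positions counted from 1 at the 5′ end of the CDR3.
mouse 34 heavy chain 1: tgtactagagaggatgactattgg
mouse 34 heavy chain 2: tgtactagagaAgTtgCctattgg
mouse 34 heavy chain 3: tgtactagagaggTtgactattgg
mouse 33 heavy chain 1: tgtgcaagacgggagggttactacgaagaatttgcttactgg
mouse 33 heavy chain 2: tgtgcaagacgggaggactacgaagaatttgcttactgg
mouse 33 heavy chain 3: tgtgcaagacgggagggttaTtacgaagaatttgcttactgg
In mouse 34, heavy chain 2 differs by G12A, A14T and A17C and heavy chain 3 by A14T alone. Heavy chain 4 of that mouse has the CDR3 of heavy chain 2 with IGHV9-2 called in place of IGHV9-1. In mouse 33, heavy chain 2 is 39 bases long against 42, and heavy chain 3 differs by C21T.

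Nfkb2, the p100 precursor of the alternative route, was at 12.3, 13.9, 10.1, 30.9 and 827.7 CPM in the 5 B clones, the last of them mouse 34. The T clones held 26.7 and 16.2 CPM. Mouse 34 stood apart from all other clones, and bystander T-like cells of the 7 nodules held 19.0 to 55.2 CPM. The clone of mouse 34 was above its own T-like cells by a log2 ratio of 3.91 (95% Poisson interval 3.68 to 4.14, counting error only), with no replicate of that clone. After thinning, 47.9% of its cells held an Nfkb2 UMI, against 0.730 to 3.97% in the other B clones and 6.36% of T-like cells in mouse 34. Nfkb2 in mouse 34 was 26.8 times the next highest B clone, and by that gap it ranked 15th of 7513 genes and 6th of 7490 without immunoglobulin genes. For scale, 2.25% of those genes were at least 4 times the next highest B clone. These values are among those for which the family was chosen and are given as a description, with no test.

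Within that clone the level followed the heavy chain. The 727 cells with heavy chain 1 alone held 1088 CPM of Nfkb2 (1067 to 1110), and the 295 cells with heavy chains 1 and 2 together held 1019 CPM. Cells with heavy chain 2 alone held 40.5 CPM (31.4 to 51.5, 154 cells), those with heavy chain 3 held 29.4 CPM (38 cells) and those with heavy chain 4 held 25.1 CPM (25 cells). The 145 cells with no heavy chain called held 86.6 CPM (71.4 to 104.0), above the range of the other clones and of T-like cells, and the 54 of them in clonotype 1 of the authors held 135.3 CPM. Cells with heavy chain 1 were far above all of these. After thinning, 66.2% of cells with heavy chain 1 and 2.597% of cells with heavy chain 2 held an Nfkb2 UMI, at median depths of 11203 and 9733 UMIs. Nfkb2 ranked 1st of 6383 genes for the difference between both sets of cells (log2 ratio 4.44, with 10 added to each CPM), among which 2.48% differed 2-fold or more. The grouping by heavy chain was chosen after these values were seen, all cells come from 1 library that pooled lung and thymus, so heavy chain and site cannot be told apart, and no test was run.

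Rela, which encodes p65, showed a pattern of the same kind in mouse 33. The B clones held 17.5, 20.8, 20.01, 269.0 and 25.2 CPM, of which the highest is mouse 33, and the T clones 33.2 and 34.8 CPM. Bystander T-like cells held 33.5 to 55.6 CPM and myeloid-like cells 23.4 to 53.0 CPM, so mouse 33 was above every other group. The clone was 4.84-fold over its T-like cells (95% Poisson interval 4.48 to 5.23, counting error only), but 1.22-fold with the largest clonotype of the authors as the clone. That clonotype held 412 cells, all without a heavy chain call. The clone as a whole was 269.0 CPM. This level was 10.7 times the next highest B clone, and by that gap Rela ranked 48th of the 7513 genes. After thinning, 21.1% of the clone cells of mouse 33 held a Rela UMI, against 1.52 to 1.91% in the other B clones.

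Rela too parted by heavy chain. In the 271 cells of mouse 33 with heavy chain 1 it was at 473.2 CPM (452.8 to 494.3). The 90 cells with heavy chain 2 held 38.4 CPM (29.3 to 49.6) and the 30 cells with heavy chain 3, which differs by 1 base, held 65.7 CPM (44.9 to 92.7). A heavy chain was not called in 672 cells, and these held 230.3 CPM. They parted by the clonotype number that the authors assigned, with 67.9 CPM in 412 cells of clonotype 1 and 536.9 CPM in 221 cells of clonotype 3. Rela ranked 2nd of 5928 genes for heavy chain 1 over heavy chain 2 (log2 ratio 3.32), where 6.02% of genes differed 2-fold or more. Rel went the other way, with 301.3 CPM in cells with heavy chain 1 and 664.6 CPM in cells with heavy chain 2, as did Tnfaip3 with 76.6 and 165.5 CPM.

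**Figure D1:**
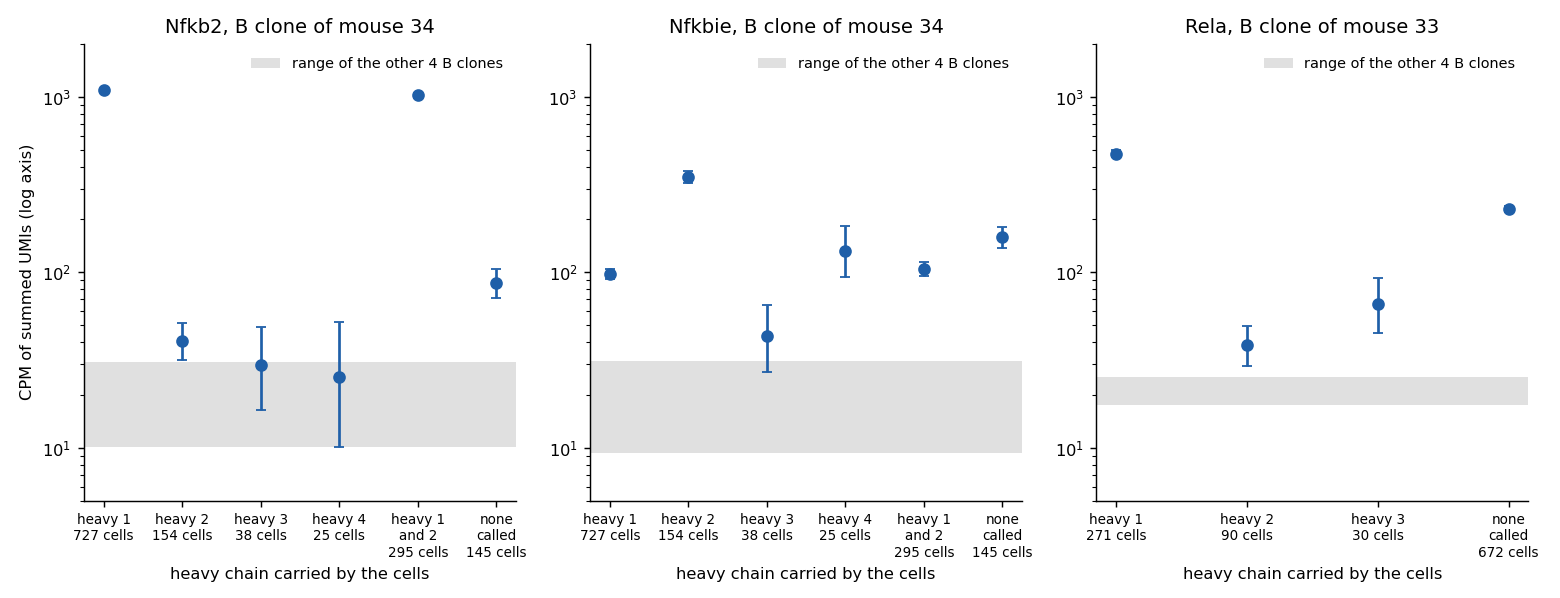
CPM of summed UMIs (log axis) for Nfkb2 and Nfkbie in the B clone of mouse 34 and Rela in the B clone of mouse 33, by the heavy chain the cells carry; bars are 95% Poisson intervals and the gray band is the range of the other 4 B clones. Nfkb2 is at 1088 CPM with heavy chain 1 and 40.5 CPM with heavy chain 2, and Rela at 473.2 and 38.4 CPM.

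Nfkbie, which encodes IκBε, was highest in the clone of mouse 34 as well, with 126.9 CPM against 28.2, 31.3, 9.33 and 26.0 CPM in the others. Between heavy chains 1 and 2 it went the other way from Nfkb2. Cells with heavy chain 2 held 348.5 CPM, those with heavy chain 1 held 98.2 CPM and those with heavy chain 3 held 43.2 CPM. For heavy chain 1 over heavy chain 2, Nfkbie was the 20th lowest of 6383 genes (log2 ratio -1.73). After thinning, the shares of cells with a UMI were 18.2% and 10.04%, and the median cell of either kind held 1 Nfkbie UMI.

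The same genes stood out in B-like cells for which no receptor was called. Nfkb2 was at 995.7 CPM in 3047 such cells of mouse 34, against 9.92 to 31.2 CPM in the other BCR mice. Rela was at 386.2 CPM in 3455 such cells of mouse 33, against 20.8 to 27.1 CPM. For this reason the ratio to all cells without a receptor call is close to 0 on the log2 scale for both genes (0.054 for Nfkb2 and 0.18 for Rela), since that reference holds many cells like the clone.

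The genes next to Nfkb2 and Rela on chromosome 19 were read in the 5 B clones. Of 12 protein-coding neighbors of Nfkb2, 10 were within 2-fold in mouse 34 of the mean of the other clones (with 10 added to each CPM). The others lie directly downstream: Psd at 11.7 CPM against 0.02 to 0.26, and Fbxl15 at 19.1 CPM against 2.05 to 6.44. Psd begins at base 46312085 and Nfkb2 ends at base 46312400, so these genes overlap. Whether Nfkb2 transcripts were counted as Psd was not tested. Without the added 10, genes of low level such as Pprc1 (6.15 CPM against a mean of 15.7) also differ by more than 2-fold. With the added 10, all 12 neighbors of Rela were within 2-fold in mouse 33. Without it, Sipa1, directly downstream, was at 43.6 CPM against a mean of 21.3. Of the 12 neighbors, 7 for Rela and 4 for Nfkb2 were above all other clones. The order of genes is that of RefSeq on GRCm38.p6.

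**Figure D2:**
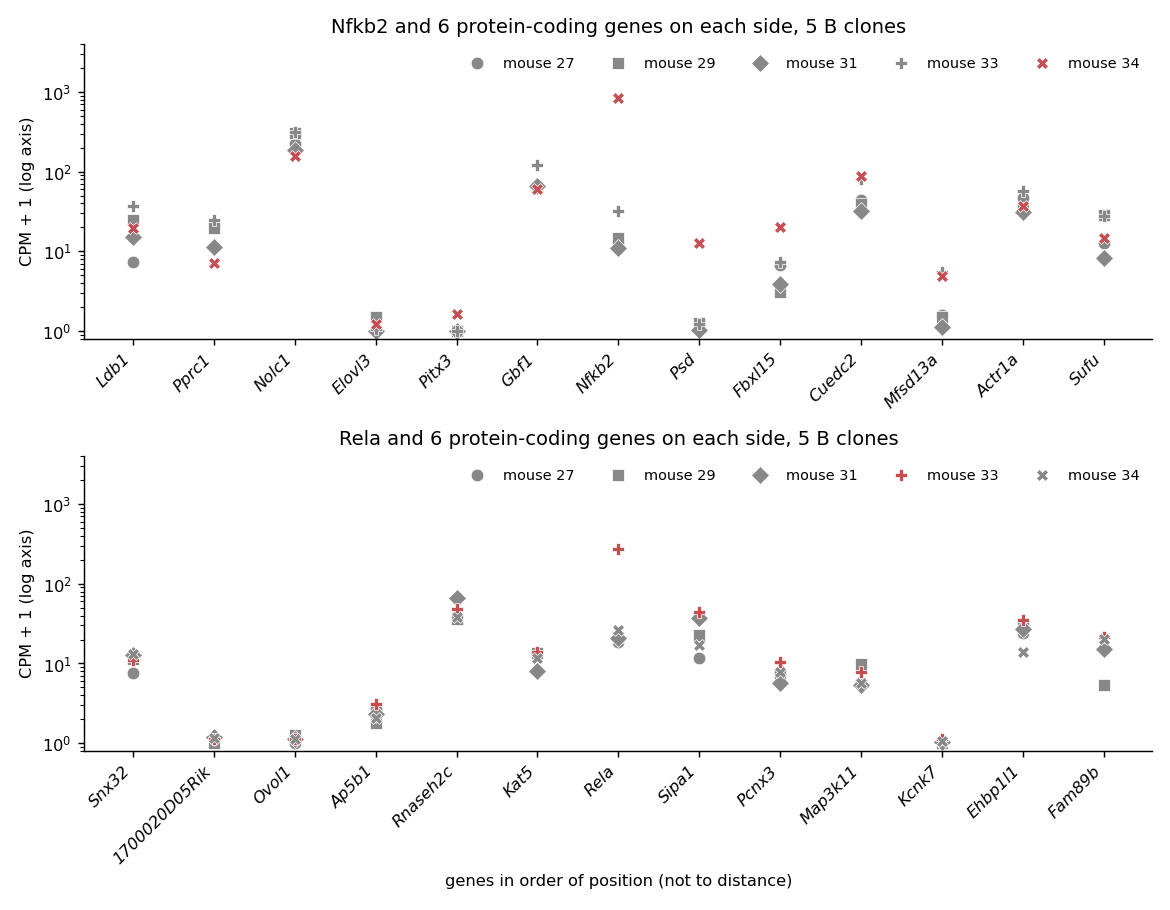
CPM + 1 (log axis) of Nfkb2 (top) and Rela (bottom) with 6 protein-coding genes on each side, in order of position, for the clones of the 5 BCR mice; red marks mouse 34 in the top panel and mouse 33 in the bottom panel. Nfkb2 is at 827.7 CPM and Rela at 269.0 CPM in the red clone, while all neighbors but Psd and Fbxl15 are within 2-fold of the mean of the other clones once 10 CPM are added to both.

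Nfkb1 and Rel made up most of the subunit transcripts elsewhere. Nfkb1, the p105 precursor, was at 437.8, 181.6, 567.9, 231.6 and 318.4 CPM in the B clones and at 331.9 and 249.1 CPM in the T clones. Rel was at 260.9, 572.3, 348.4, 390.2 and 484.2 CPM in the B clones and at 660.5 and 468.2 CPM in the T clones. T-like cells held 237.9 to 599.7 CPM of Nfkb1 and 265.8 to 668.6 CPM of Rel, so clones and bystanders overlapped for both genes. The clones of mice 27 and 31 were the highest of the B clones for Nfkb1 and the lowest for Rel.

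Shares of UMIs among the 5 subunits put this on 1 scale within a cell class. A share reflects molecules counted and was not corrected for how well each transcript is captured. Nfkb1 took 56.4% of subunit UMIs in the clone of mouse 27 and 57.5% in mouse 31, with Rel at 33.6% and 35.3%. Rel led in the clone of mouse 29 with 68.1%, and in the T clones with 58.2% in mouse 30 and 56.4% in mouse 32. In the clone of mouse 33, Rel took 41.0%, Rela 28.3% and Nfkb1 24.3%, and in mouse 34 Nfkb2 took 48.6%, Rel 28.4% and Nfkb1 18.7%. In bystander T-like cells Nfkb1 took 30.8 to 45.1%, Rel 38.1 to 52.5%, Relb 7.36 to 13.9%, Nfkb2 1.69 to 7.91% and Rela 2.85 to 6.23%.

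**Figure D3:**
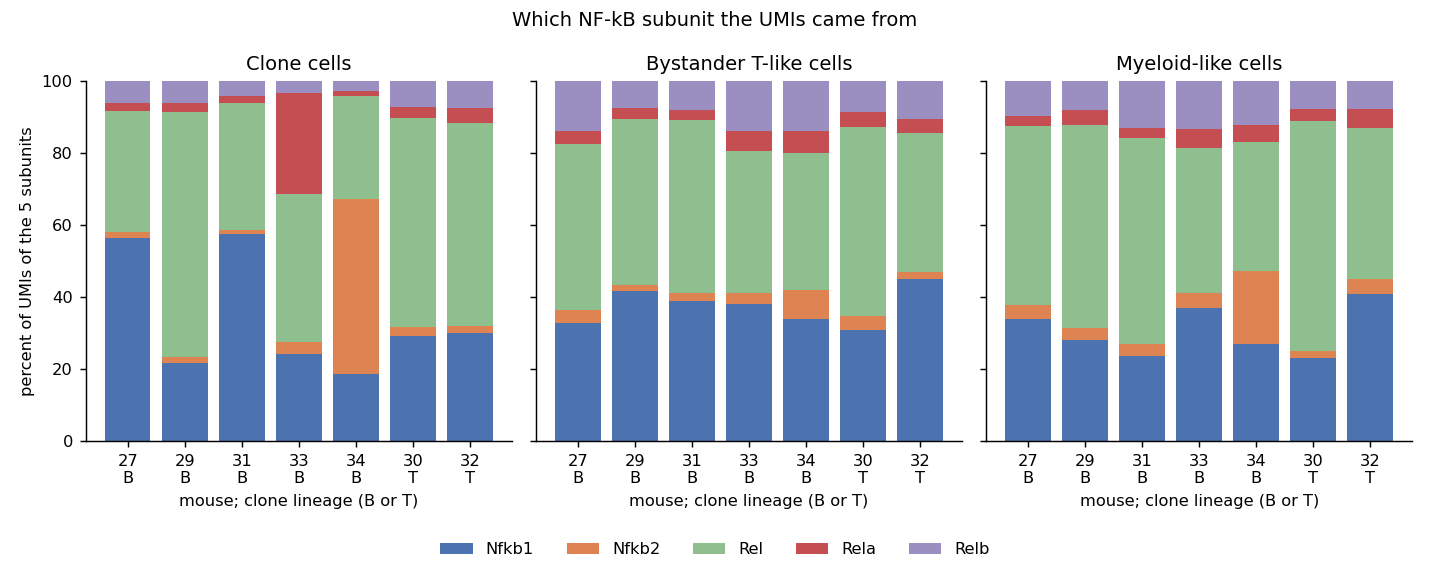
Share of UMIs of each subunit among the 5 subunits (percent, stacked to 100) in clone, bystander T-like and myeloid-like cells of the 7 mice, with the lineage of the clone under the mouse number. Nfkb2 takes 48.6% in the clone of mouse 34 and Rela 28.3% in that of mouse 33, while Nfkb1 and Rel lead in the other clones and in all bystander cells.

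Relb, the partner of p52, was lower in every B clone than in the T-like cells beside it. The B clones held 47.5, 51.6, 40.7, 30.5 and 46.7 CPM, while T-like cells of these mice held 95.9 to 154.8 CPM. The T clones held 81.7 CPM against 73.3 in mouse 30 and 62.3 against 109.3 in mouse 32. The clone of mouse 34, with the most Nfkb2, was within the range of the other B clones for Relb.

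Among the regulators, 4 of 5 were lower in all B clones than in all T-like cells of the BCR mice, with no overlap. With Relb, this held for 5 of the 10 genes, beside 11% of 14856 genes. Tnfaip3 (A20) showed the widest gap, with 59.6, 122.1, 101.2, 120.04 and 119.9 CPM in the B clones against 732.7 to 2008 CPM in T-like cells. After thinning, 5.39 to 10.5% of B clone cells and 45.9 to 68.9% of T-like cells held a Tnfaip3 UMI. Nfkbia (IκBα) was at 353.7, 241.6, 476.7, 276.6 and 248.8 CPM in the B clones, against 868.0 to 2261 CPM in T-like cells. Nfkbiz (IκBζ) was at 15.6 to 62.3 CPM in the B clones and 157.2 to 363.1 CPM in T-like cells. Bcl3, a nuclear partner of p50 and p52, was at 1.19 to 3.63 CPM in 4 B clones and 17.2 CPM in that of mouse 29, against 21.2 to 56.1 CPM in T-like cells.

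A list of 14 immediate early and dissociation genes was also lower in every B clone than in the T-like cells beside it. That list summed to 2728 to 6872 CPM in the B clones and 7137 to 34400 CPM in T-like cells of the same mice. Its part in the differences was not tested. Since B cells are set against T cells, the clone and its lineage cannot be told apart in this comparison.

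The T clones were set against other T cells of their nodule. For Tnfaip3, the clone of mouse 30 held 858.2 CPM against 1101 CPM in other T cells, and that of mouse 32 held 606.7 against 1621 CPM. Nfkbia was at 341.1 against 598.2 CPM and 616.1 against 1515 CPM, and Nfkbiz at 143.5 against 224.2 CPM and 210.6 against 350.8 CPM. These 3 genes were lower in the clone in both mice, and Rel was higher in both. The direction depended on the reference: against all cells without a receptor call, the log2 ratios in mouse 32 were 1.33 for Tnfaip3, 0.11 for Nfkbia and 0.65 for Nfkbiz. Bcl3 was at 37.4 against 34.6 CPM in mouse 30 and 47.3 against 59.0 CPM in mouse 32. The dissociation list was lower in the T clones too, at 8029 against 15582 CPM and 11421 against 15004 CPM. Markers of other cells differed too: 11 neutrophil markers summed to 954.1 CPM in the clone against 181.2 CPM in mouse 30 and 2582 against 292.4 CPM in mouse 32, and 6 NK cell markers to 11.2 against 316.4 CPM and 28.6 against 2263 CPM. The part of these lists was not tested. Other T cells came from clusters named T only, while some clone cells lay in clusters named erythroid or neutrophil. With the clone limited to T clusters, the log2 ratio of Rel in mouse 32 was 0.49 in place of 0.21. That of Tnfaip3 in mouse 32 was -1.17 in place of -1.42. Tnfaip3, Nfkbia, Nfkbiz and Rel kept their direction in both mice. The part of clone cells outside T clusters in the neutrophil marker sums was not tested.

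**Figure D4:**
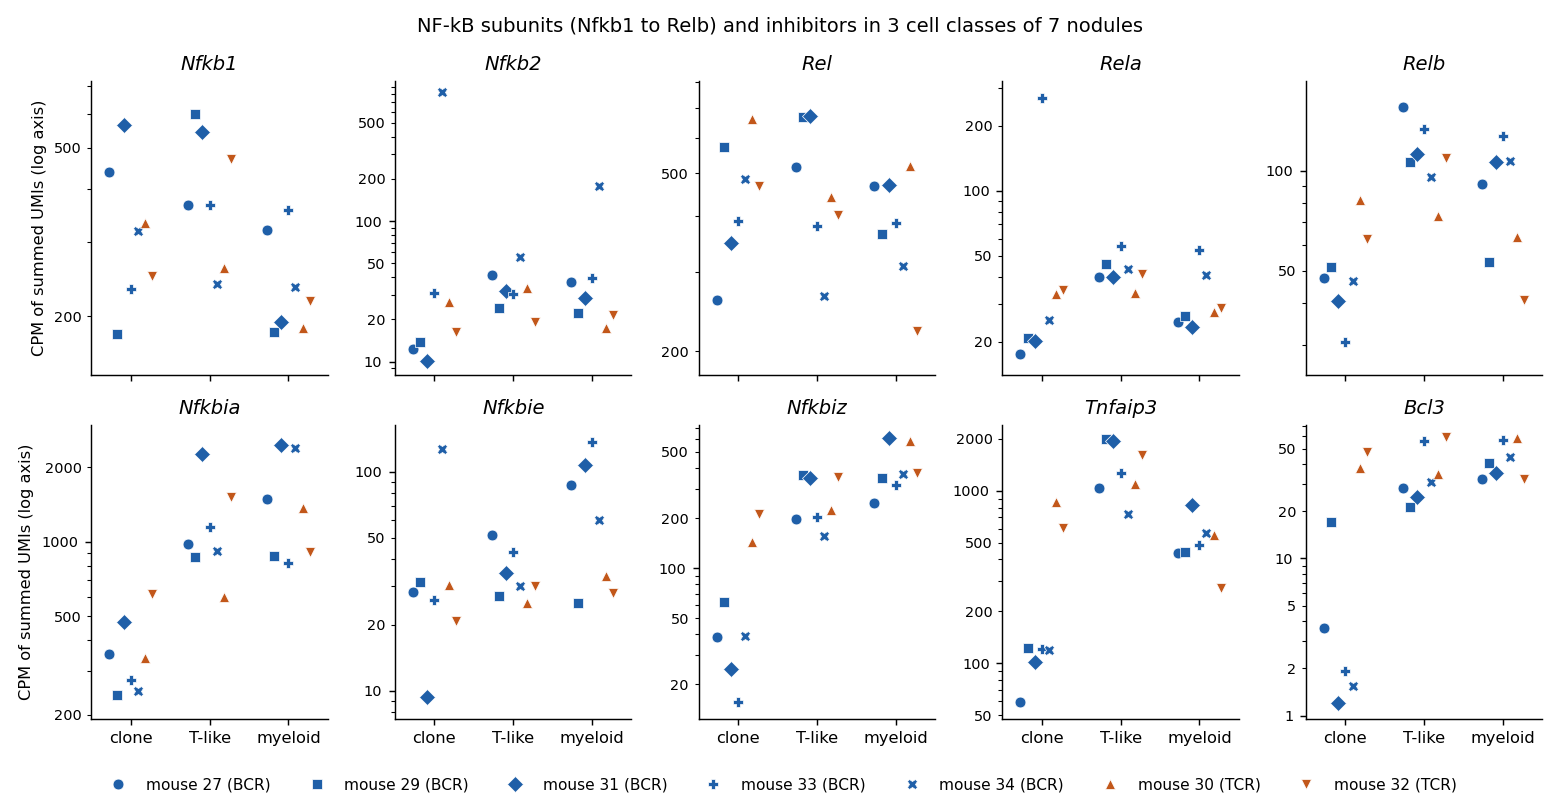
CPM of summed UMIs (log axes) of the 10 genes in clone cells, bystander T-like cells and myeloid-like cells, 1 point per mouse, with BCR-profiled mice in blue and TCR-profiled mice in orange. Tnfaip3, Nfkbia, Nfkbiz, Bcl3 and Relb are lower in the 5 B clones than in T-like cells of those mice, and Nfkb2 in mouse 34 and Rela in mouse 33 stand apart.

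Whether the clones differ from other cells of their own lineage was tested against B-like cells with another receptor in mice 29, 31 and 33, which had 32, 41 and 27 such cells. None of the 10 genes passed the test (edgeR quasi-likelihood test with mouse as a block, called at adjusted p of 0.05), where 0.27% of 10363 genes were called. Nfkbia had the smallest p, with 241.6 CPM in the clone against 480.0 in mouse 29, 476.7 against 2021 in mouse 31 and 276.6 against 412.9 in mouse 33. Its log2 fold change was -1.31 ± 0.34 (SE, edgeR adjusted p = 0.216), and it passed under DESeq2 (-1.41, adjusted p = 0.0270) and without the filter on low counts (-1.26, edgeR adjusted p = 0.0301). The fold change of Tnfaip3 was -1.16 ± 0.40 on the log2 scale (edgeR adjusted p = 0.406) and that of Rela -0.02 ± 0.44 (edgeR adjusted p = 0.996).

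Some limits of this comparison were measured. The 8 B cell markers summed to 28783 CPM in other B-like cells of mouse 29 and 2211 CPM in its clone. They summed to 9769 and 1664 CPM in mouse 33, and to 4229 and 2875 CPM in mouse 31. In simulated counts, this test recovered 44% of 200 changed genes. The other B-like cells of mouse 31 held 34878 CPM of the dissociation list against 6872 in the clone, and the cause of their high Nfkbia was not tested. Those of mouse 33 held 152.8 CPM of Rela and 231.2 CPM of Pax2, a transcription factor gene at 240.1 CPM in the clone, so both were high in cells called outside the clone.

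Bystander T-like cells were compared between the 2 TCR-profiled and the 5 BCR-profiled nodules. They were required to have a called receptor in TCR nodules and to lack one in BCR nodules. The effects of this rule and of the kind of nodule therefore cannot be told apart. None of the 10 genes passed the test, and neither did any of 10172 genes (0% called; edgeR, 281 genes at an unadjusted p under 0.05; 7 genes with DESeq2). The largest difference of the family was that of Bcl3, at 46.8 ± 17.3 CPM (SD, n = 2) in TCR nodules and 32.2 ± 13.9 CPM (SD, n = 5) in BCR nodules, which differed by 0.52 ± 0.45 on the log2 scale (SE, edgeR adjusted p = 0.995).

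Myeloid-like cells were compared with bystander T-like cells over all 7 mice, a comparison without clone cells. Of the 10 genes, 3 passed the test (edgeR with mouse as a block), beside 42.7% of 12751 genes called, 24.4% higher and 18.3% lower. Of those calls 57.1% were higher in myeloid-like cells, and 39.5% with library size scaling. Tnfaip3 was lower in myeloid-like cells, at 511.4 ± 169.1 CPM against 1388 ± 484.5 CPM (SD, n = 7), in 7 of 7 mice (log2 fold change -1.11 ± 0.28, SE, edgeR adjusted p = 0.00744). Nfkbie was higher, at 68.2 ± 43.4 CPM against 34.4 ± 9.44 CPM, in 5 of 7 mice (1.07 ± 0.27, edgeR adjusted p = 0.00759). Nfkbiz was higher, at 405.8 ± 135.3 CPM against 263.5 ± 87.6 CPM, in 6 of 7 mice (0.93 ± 0.23, edgeR adjusted p = 0.00717), but in macrophage- and monocyte-like cells alone its log2 fold change was 0.18 and no longer passed.

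None of the 5 subunits passed that test. Nfkb1 was lower in myeloid-like cells in 7 of 7 mice, at 241.4 ± 68.8 CPM against 406.4 ± 137.5 CPM, and the fitted value was -0.42 ± 0.23 on the log2 scale (SE, edgeR adjusted p = 0.171). It passed with library size scaling (-0.72) and with cells bearing markers of both lineages left out (-0.61). Rel differed by 0.04 ± 0.21 on the log2 scale (edgeR adjusted p = 0.905). The scaling factors moved all log2 values of this comparison by 0.31 from plain CPM ratios.

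**Figure D5:**
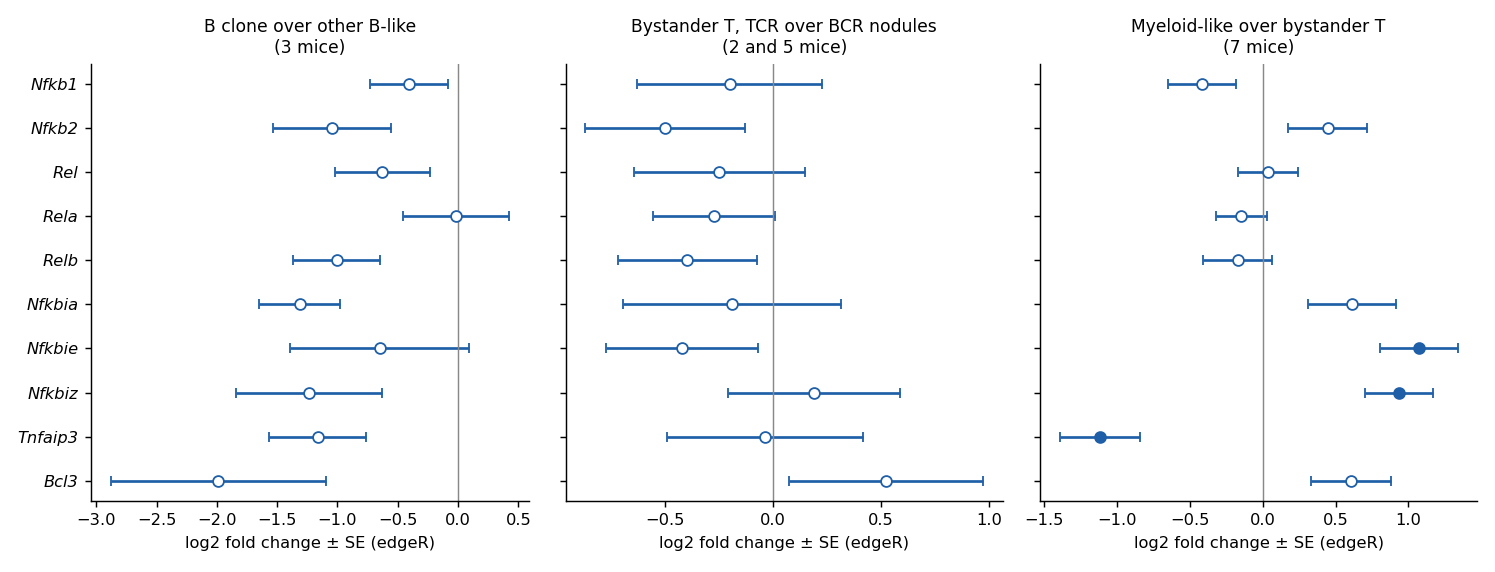
Log2 fold change ± SE (edgeR) of the 10 genes for B clone over other B-like cells (3 mice), bystander T-like cells of TCR over BCR nodules (2 and 5 mice), and myeloid-like over bystander T-like cells (7 mice); filled points passed an adjusted p of 0.05. The filled points are Tnfaip3 (-1.11), Nfkbie (1.07) and Nfkbiz (0.93), all in the comparison of myeloid-like cells.

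Nfkb2 in myeloid-like cells followed the clone in 1 mouse. It was at 17.5 to 39.4 CPM in 6 mice and at 177.4 CPM in mouse 34. In mouse 34 the level was 154.2 CPM in 104 macrophage- and monocyte-like cells, 18.6% of that of the clone, and 298.1 CPM in 41 neutrophil-like cells, 36.0% of it. B cell genes were found there too. Cd79a was at 8.39% and 29.3% of its clone level, Cd79b at 24.7% and 19.9%, and Rgs13 at 8.64% and 20.1%. Ighv9-1, the V gene of the commonest heavy chain of that clone, was at 4.18% and 21.3%. The part of clone RNA in the myeloid-like Nfkb2 level was not tested.

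Other genes of the pathway were read from 5 lists with 75 genes. For these lists, rose and fell mean higher and lower in the first class named. In B clones against bystander T-like cells, 6 of 74 measured genes rose and 29 fell, with a median log2 fold change of -0.62, beside 32.4% of 14856 genes called, 16.2% lower, and a median of 0.07 over all genes. Among receptors, 4 of 16 rose and 7 fell. Tnfrsf13c, the BAFF receptor, rose (log2 fold change 4.62 ± 0.60, SE, edgeR adjusted p = 0.00139), as did Cd40 (3.29 ± 0.52, edgeR adjusted p = 0.00310) and Tlr9 (3.47 ± 0.73, edgeR adjusted p = 0.0102). Cd27, Tnfrsf4 and Tnfrsf18, receptors of the TNF family found on T cells, fell by 7.25, 6.95 and 6.67 on the log2 scale.

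Signaling genes between receptor and subunit were read beside the 32.4% of all 14856 genes called in B clones against bystander T-like cells, 16.2% lower. Of 17 adaptors none rose and 5 fell, led by Prkcq, the T cell kinase PKCθ (-6.67), Traf1 (-2.23) and Birc2 (-1.43). Of 10 kinases only Ikbke passed (-2.97). The other inhibitors resembled the regulators above, with 1 of 11 higher (Commd1, 0.90) and 7 lower, among them Tnip3 (-2.27), Zc3h12a (-2.18) and Nfkbid (-1.89). Of 20 targets, 9 fell, led by the chemokine genes Ccl4 (-6.47) and Ccl3 (-6.22) and the cytokine gene Il6 (-4.92). Ccl22 alone rose, from 0.0579 ± 0.129 CPM to 1.79 ± 3.15 CPM (SD, n = 5), higher in 3 of 5 mice.

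In T clones against other T cells, 0 of 66 pathway genes passed (0% of 11533 genes called by edgeR, 1080 at an unadjusted p under 0.05 and 233 with DESeq2), with a median log2 fold change of -0.27. Genes with the smallest p in their lists were Ccl4 (-5.72, edgeR adjusted p = 0.149), Nfkbid (-1.54, edgeR adjusted p = 0.284) and Il18r1 (-2.08, edgeR adjusted p = 0.373). In myeloid-like cells against T-like cells, 28 of 73 pathway genes rose and 9 fell, beside 24.4% of all genes higher and 18.3% lower, shares that depend on the scaling as given above. Targets rose in 10 of 19 cases, led by Il1b (7.83), Ptgs2 (6.66) and Cxcl2 (5.48), all genes of inflammation. Receptors of innate signals, Tlr2 (6.51) and Tlr7 (4.90), rose together with the lymphotoxin receptor gene Ltbr (6.40), and the kinase gene Map3k8 rose (1.54).

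Pathway genes were also read between the heavy chains. In mouse 34, 0 of 42 measured genes were 2-fold higher with heavy chain 1 and 4 were lower (Tnfrsf13c, Il18r1, Ccl4 and Tnf), beside 2.48% of all genes in either direction. In mouse 33, 4 of 47 were higher (Tnfrsf13c, Prkcb, Bcl2a1b and Bcl2a1d) and 2 lower (Map3k14 and Ccl4), beside 6.02% of all genes. These are counts over cells of 1 library each, with no test, and Bcl2a1b and Bcl2a1d are near-identical copies whose reads the counting could split.

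The pattern of each subunit over the 21 sums of clone, T-like and myeloid-like cells was set beside that of 6504 genes, as a description. Nfkb2 was most like Ighv9-2 (Pearson r = 0.94), Ighv9-1 (0.90) and Rgs13 (0.89), and Rela most like Iglv2 (0.86), Iglv3 (0.76) and Ighv9-3 (0.72), all of them, except for Rgs13, receptor genes. Nfkb1 was most like Dusp10 (0.81), Rel like Hivep2 (0.67), Relb like Gpr65 (0.88) and Bcl3 like Gch1 (0.88). The sums of 1 mouse share a library. Nfkb2 and Rela were high in 1 clone each (827.7 CPM in mouse 34 and 269.0 CPM in mouse 33). Genes high in that clone alone score as alike, so these values do not show co-expression across mice.

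Finally, promoters of the family were searched for the NF-κB consensus motif of 10 letters on both strands, from 250 bases before to 50 after the start (RefSeq, GRCm38.p6). Promoters of 7 of the 10 genes were in the table, and 6 of these held a match in at least 1 promoter, against 5.14% of 27025 genes in the table. Rela was the gene without one. A match shows letters only and not binding. Stretches with matches (capitals) are given for Nfkb2, which parted by heavy chain, and for the inhibitor genes Nfkbia, Nfkbie and Tnfaip3.
Nfkb2, chr19:46304688-46304717, plus strand: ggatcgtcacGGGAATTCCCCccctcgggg
Nfkbia, chr12:55492657-55492686, minus strand: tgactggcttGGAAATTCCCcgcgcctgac
Nfkbie, chr17:45555584-45555613, plus strand: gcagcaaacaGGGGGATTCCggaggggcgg
Tnfaip3, chr10:19015516-19015545, minus strand: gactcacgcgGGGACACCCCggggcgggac
The matches begin 39 bases before the start for Nfkb2, 29 for Nfkbia, 106 for Nfkbie and 125 for Tnfaip3.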

How the data were processed

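The authors deposited raw UMI counts per gene and cell for 7 RNA libraries, not normalized, with receptor contigs and clonotypes from SeekSoulTools. GRCm38 (mm10) stands in the submitters' processing notes, and the aligner is not given in the sources used here. Labels and methods name different kits (5′ and 3′), so the transcript end counted is not settled. Cells with at least 201 UMIs, 101 genes and at most 10% mitochondrial UMIs were kept. Leiden clustering (scanpy 1.11.5, leidenalg 0.10.2, Python 3.11.15; 2000 genes, 30 components, 15 neighbors, resolution 1) gave 32 clusters, named when 3 markers of a class were found; 4 (4998 cells) stayed unnamed. No doublet caller was run, and 1015 cells (1.34%) held markers of both T and B cells, whose removal was an alternative.

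UMIs were summed per mouse and class, scaled to CPM and given 95% Poisson or Clopper-Pearson intervals, which cover counting error only. Sums of at least 20 cells were tested with edgeR 4.0.16 (R 4.3.3; TMM, filterByExpr, Benjamini-Hochberg over all genes tested), with DESeq2 1.42.0 as an alternative. The mouse was a block where both sums came from the same nodule, which is what pairs them. Mice are the replicates. Scripts were tested on simulated counts with 200 changed genes. Only 44% of these were recovered for B clones against other B cells and 50.5% for T clones against other T cells. The absence of calls in those comparisons therefore carries little weight. Alternatives were another tool, filter, scaling, class definition, clone definition, thinning, no block and leaving out each mouse.

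The members and lists were chosen with earlier results of these data known, so clone against bystander values of the 10 genes carry no test. Named pathway genes were the 3 with the largest log2 fold change in each direction past the threshold in a list, or the one with the smallest p, of which the text gives a part. Likeness used genes with a mean of at least 20 CPM. The grouping by heavy chain (at least 20 cells) was chosen after values were seen.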

Additional observations from a re-analysis of the deposited data

Results flagged for a closer look

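In groups of 5 mice, 1 mouse lay far from the other 4, by its gap against the whole range, in 7 of 30 groups (10 genes in 3 cell classes of the BCR-profiled mice). Such a gap arises by chance in about 1 in 20 groups, but the genes were chosen by their values in these classes, so the count is a description and is not read against chance. Nfkb2 in the B clone of mouse 34 was at 827.656 CPM, against 10.1 to 30.9 CPM in the others. Rela in the B clone of mouse 33 was at 269.042 CPM, against 17.5 to 25.2 CPM. Nfkbie in the B clone of mouse 34 was at 126.938 CPM, against 9.33 to 31.3 CPM. Bcl3 in the B clone of mouse 29 was at 17.1858 CPM, against 1.19 to 3.63 CPM. Nfkbia in bystander T-like cells of mouse 31 was at 2260.99 CPM, against 868.0 to 1144 CPM. Mouse 31 had the highest dissociation list in T-like cells (34400 CPM). T-like cells of mouse 29, with 29005 CPM of that list, were within the lower range for Nfkbia. Bcl3 in bystander T-like cells of mouse 33 was at 56.1393 CPM, against 21.2 to 30.8 CPM. Nfkb2 in myeloid-like cells of mouse 34 was at 177.422 CPM, against 22.2 to 39.4 CPM.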

How the results depend on the processing

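Of 99 alternative values of the main results, 69 kept their direction and size, 28 moved and 2 reversed, and of 570 for single genes 545 kept theirs. The count of 5 genes lower in all B clones stayed between 4 and 6. The log2 ratio of Nfkb2 in mouse 34 (3.91) was 3.67 after thinning, 4.20 with classes by marker UMIs, 0.054 against all cells without a receptor call, 4.30 in cells with heavy chain 1 and -0.45 with heavy chain 2. That of Rela in mouse 33 (2.28) was 0.29 with the largest clonotype as the clone, 2.49 by marker UMIs, 0.18 against all cells without a call, 2.46 with mitochondrial, ribosomal and receptor genes left out of the scaling, 2.56 in shallower clone cells, 3.09 with heavy chain 1 and -0.53 with heavy chain 2. That of Nfkbie in mouse 34 (2.08) was 0.061, 1.71 and 3.53 against uncalled cells and with heavy chains 1 and 2. Against all uncalled cells the mean T clone ratios of Nfkb2 (0.32), Tnfaip3 (0.47), Relb (0.34) and Bcl3 (0.76) turned positive. Genes called in T clones were 0 (233 with DESeq2, 214 without the filter). In B clones against other B cells 28 became 125 with DESeq2, 331 without the filter, 47 with library size scaling and 103 to 202 when 1 mouse was left out. In T-like cells between nodules 0 became 7, 1 and 1 under the same settings, and 0 to 5 without 1 mouse. With no replicate block, calls were 0 for B clones against other B cells, 3602 in place of 5442 for myeloid-like cells and 3410 in place of 4807 for B clones against T-like cells. Library size scaling put 39.5% of calls in myeloid-like cells higher, against 57.1%. For myeloid-like cells Bcl3 (0.85) and Nfkbia (0.82) passed without mouse 32, and Bcl3 by marker UMIs (0.84). Leaving out a mouse of the T clone comparison was not run, since 1 mouse leaves no residual degrees of freedom. Library size scaling, macrophage- and monocyte-like cells alone, shallow clone cells and heavy chains were added after seeing the data. Depth limits genes of few UMIs, such as Bcl3 in the B clones. Causes were not tested.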
